A study of Mus musculus with 6 samples.

Results

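Cytotoxic lymphocytes, which are CD8 T cells and natural killer (NK) cells, kill target cells and secrete interferon gamma, and 10 of their effector genes were followed here in brown adipose tissue (BAT). The genes were the granzymes Gzma, Gzmb and Gzmk, the pore former Prf1, the granule protein gene Nkg7, the cytokine gene Ifng, the death ligand gene Fasl and the receptor genes Klrd1, Klrk1 and Ncr1. They are 10 of the 35976 rows of the count table, and all 10 were among the 14542 genes with enough counts to be tested. The group was chosen with the comparison of sST2-KO and WT in view, in which Gzmb and Nkg7 were among the clearest rises. The differences of the 10 genes between the genotypes are therefore given as a description, without a test.

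BAT was taken for RNA-seq from 3 homozygous sST2-KO and 3 WT mice, which were male, 10 weeks old, on a C57BL/6J background and bred from heterozygous parents. In the knockout, CRISPR/Cas9 had removed from Il1rl1 the intron that separates exon 8 from exon 9, which deletes the soluble receptor sST2 and spares the membrane receptor ST2L. All 6 mice had undergone surgical denervation of BAT and were then kept at 10 °C for 8 h, so both groups share the surgery and the cold, and no sham-operated or warm mice were in the comparison. The deletion is carried by all cells of the animal, so the comparison does not single out a tissue or cell type.

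Killing by these cells works through granules. Perforin opens the membrane of the target cell, granzymes enter and cleave proteins there, and receptors of the killer cell decide whether the granules are released. Fas ligand kills by binding a death receptor on the target, and interferon gamma acts on macrophages, endothelial cells and adipocytes nearby. CD8 T cells and NK cells are minor cells of BAT, whose bulk RNA comes mostly from adipocytes. In bulk tissue, more cells of a type and more RNA per cell cannot be told apart.

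The promoters of the genes that lead the group are printed here because these genes were all higher in sST2-KO. Each run is taken from RefSeq (table build GRCm38.p6) and is written 5′ to 3′ on the strand of the gene. It covers up to 250 bases before the RefSeq start and leaves out bases inside the GENCODE gene. The Gzmb run ends before its GENCODE gene, which begins at chr14:56499717 on the minus strand. Capitals mark matches on either strand to the letters GGTGTGA (T-box), TGTGGT (Runx), AGGAAG (Ets), TGANTCA (AP-1), TTCNNNGAA (STAT) or TGACGTCA (CREB). In GRCm39, the build used for the counts, the runs lie at chr14:56499792-56500041 on the minus strand for Gzmb, chr13:113237525-113237765 on the minus strand for Gzma, chr10:61133365-61133545 on the plus strand for Prf1, chr7:43086312-43086496 on the plus strand for Nkg7 and chr10:118276701-118276950 on the plus strand for Ifng.
Gzmb: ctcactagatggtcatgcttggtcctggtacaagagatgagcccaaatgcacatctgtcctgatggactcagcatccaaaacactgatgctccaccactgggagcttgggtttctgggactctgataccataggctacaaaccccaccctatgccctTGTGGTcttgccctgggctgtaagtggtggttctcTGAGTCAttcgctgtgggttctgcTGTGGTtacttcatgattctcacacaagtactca
Gzma: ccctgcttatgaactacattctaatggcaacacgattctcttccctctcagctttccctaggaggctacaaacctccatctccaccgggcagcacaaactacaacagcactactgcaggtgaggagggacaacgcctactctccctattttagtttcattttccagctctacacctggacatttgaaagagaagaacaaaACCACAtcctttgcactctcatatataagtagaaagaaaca
Prf1: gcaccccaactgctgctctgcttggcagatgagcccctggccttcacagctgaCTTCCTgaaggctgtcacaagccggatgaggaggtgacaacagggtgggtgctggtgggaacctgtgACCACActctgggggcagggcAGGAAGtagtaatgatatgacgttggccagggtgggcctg
Nkg7: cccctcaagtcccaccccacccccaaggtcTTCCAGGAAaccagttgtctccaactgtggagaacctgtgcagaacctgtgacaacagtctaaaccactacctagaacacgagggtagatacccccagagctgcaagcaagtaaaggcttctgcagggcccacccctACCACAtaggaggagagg
Ifng: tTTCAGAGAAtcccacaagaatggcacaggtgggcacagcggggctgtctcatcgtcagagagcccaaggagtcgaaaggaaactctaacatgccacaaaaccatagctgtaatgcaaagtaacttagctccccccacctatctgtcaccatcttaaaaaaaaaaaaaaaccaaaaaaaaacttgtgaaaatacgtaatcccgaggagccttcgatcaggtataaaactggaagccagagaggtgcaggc

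Gzmb had Runx letters at -93 and at -34 from the RefSeq start, with AP-1 letters between them at -58. Of the 9 genes with a window in the table, 6 held the Runx letters in their 250 bases (Gzma, Gzmb, Prf1, Nkg7, Klrk1 and Ncr1), against 14.0% of 32536 distinct windows. Ets letters were found in 3 (Prf1, Nkg7 and Fasl), against 29.6% of windows. T-box letters were found in 2 (Nkg7 and Gzmk), against 3.33%, STAT letters in 2 (Nkg7 and Ifng), against 7.04%, AP-1 letters in 1 (Gzmb), against 6.73%, and CREB letters in 0, against 1.56%. The T-box and Ets letters of Nkg7 lie after the run shown. None of the matches overlapped another, and a match describes the letters of the window only. Klrd1 had no entry.

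The 6 libraries held 8159442 to 12874809 counts, and levels are given as CPM, counts scaled to library size by the TMM method to a per-million scale, as mean ± SD over the 3 mice of a group. TMM factors ran from 0.8253 to 0.9957 in WT and from 1.035 to 1.139 in sST2-KO, and the median log2 fold change of all genes tested was 0.0336. Brown adipocyte markers were present in all libraries and were lower in sST2-KO, at 4280 to 8800 summed CPM against 19300 to 29100 in WT, with 6 of 9 markers called lower. Skeletal muscle markers summed to 3440 to 14900 CPM in sST2-KO, against 6.29, 20.5 and 1210 in WT. sST2-KO replicate 3 stood apart, with the highest macrophage, mast cell and muscle sums and 6.802% mitochondrial counts against 11.77% to 16.59% elsewhere. Counts of Il1rl1 sum sST2 and ST2L and do not check the genotype, and its level was 0.7397 to 1.791 CPM in WT and 3.833 to 14.02 CPM in sST2-KO.

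All 10 effector genes were higher in every sST2-KO library than in any WT library. Their log2 fold changes (sST2-KO against WT, fitted with edgeR) ran from 1.55 for Ncr1 to 6.04 for Ifng, with a median of 3.06, which is between 2.92-fold and 66.0-fold. By the call rule used across all genes, an adjusted p under 0.05 and more than 2-fold, 9 of the 10 were called higher and Ncr1 was not, and 9.04% of all genes tested were called higher. Of all genes tested, 21.8% had every sST2-KO library above every WT library. Since the group was chosen on this comparison, nothing is read from these counts.

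**Figure D1:**
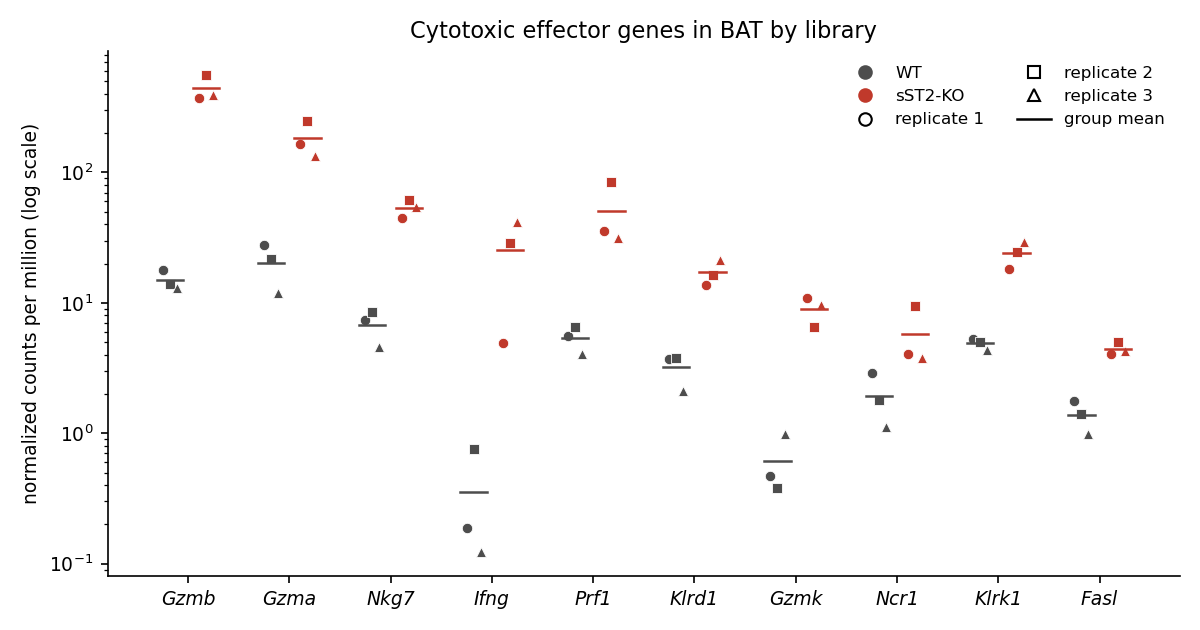
Level of each effector gene in CPM (log axis) in 3 WT libraries (grey) and 3 sST2-KO libraries (red), with symbols for the replicates, lines for group means, and genes ordered by their level per kilobase in sST2-KO. The groups do not overlap for any of the 10 genes, and the gap is widest for Gzmb, whose lowest sST2-KO library was 20.8 times the highest WT library, and narrowest for Ncr1, at 1.30 times.

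Values are listed in the order of replicates 1, 2 and 3 of each group. Summed over the 10 genes, WT libraries held 72.8, 63.4 and 43.2 CPM, and sST2-KO libraries held 671, 1044 and 719 CPM. The sum was 59.8 ± 15.1 CPM (SD, n = 3) in WT and 811 ± 203 CPM (SD, n = 3) in sST2-KO, and the groups did not overlap. Gzmb alone held 21.8% to 30.0% of the sum in WT and 53.8% to 55.2% in sST2-KO. Most of the difference in the summed reads was therefore that of 1 gene.

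Granzyme B, encoded by Gzmb (chr14:56496295-56499717, minus strand), cleaves caspases and Bid in the target cell and is the classic marker of an armed killer cell. Its counts were 191, 147 and 105 in WT and 5309, 4733 and 3940 in sST2-KO. These are 17.8, 13.8 and 12.9 CPM in WT and 370.0, 562 and 389 CPM in sST2-KO. The WT libraries lay close together, the second sST2-KO library was the highest, and no library of one group came near the other group. Group means were 14.9 ± 2.59 and 440.2 ± 106 CPM (SD, n = 3 each), a log2 fold change of 4.89 (SE 0.29), or 29.6-fold.

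Granzyme A, encoded by Gzma (chr13:113230355-113237524, minus strand), is a tryptase that is stored by resting NK cells as well as by effector T cells. It measured 27.6, 21.5 and 11.96 CPM in WT and 165, 246.5 and 134 CPM in sST2-KO. The third WT library was the lowest of its group and the second sST2-KO library the highest, and the groups did not overlap. The means were 20.4 ± 7.89 and 182 ± 58.0 CPM (SD, n = 3 each), a log2 fold change of 3.16 (SE 0.38), or 8.91-fold. Per kilobase of exon, the level of Gzma was above that of Gzmb in 2 of 3 WT libraries, and in sST2-KO it was below Gzmb in all 3. This uses all annotated exons of Gzma, 1545 bases. Its canonical transcript has 890 bases, which would raise its level against Gzmb, whose length is 1436 bases by either measure.

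Granzyme K, encoded by Gzmk (chr13:113308142-113362442, minus strand), is a tryptase found mainly in memory CD8 T cells. It had only 5, 4 and 8 counts in WT and 155, 55 and 97 counts in sST2-KO, or 0.466, 0.377 and 0.986 CPM against 10.8, 6.53 and 9.58 CPM. The third WT library, lowest for the other 9 genes, was the highest here, and the groups did not overlap. On these few WT counts, the log2 fold change was 3.90 (SE 0.45), or 14.9-fold. A noncoding gene on the opposite strand shares 148 exon bases with Gzmk, and whether htseq-count used the strand is not given in the sources used here.

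The makeup of the 3 granzymes differed between the groups. Per kilobase of exon, Gzmb made up 40.5%, 40.5% and 51.6% of their summed level in WT and 69.2%, 70.4% and 74.3% in sST2-KO. Gzma made up 58.4%, 58.4% and 44.3% in WT and 28.7%, 28.7% and 23.8% in sST2-KO. The shares of both genes were apart in the 2 groups, with Gzmb at 44.2% ± 6.41 against 71.3% ± 2.65 (SD, n = 3 each). Gzmk stayed a small part, between 0.846% and 4.07% in all 6 libraries. These shares do not depend on library scaling, but they depend on the gene lengths used. The canonical transcripts of Gzma and Gzmk have 890 and 1028 bases, against 1545 and 1389 exon bases here. That of Gzmb has the same 1436 bases. With canonical lengths the share of Gzmb would be lower in all 6 libraries. The ratio of Gzmb to Gzma would change by the same factor in each library.

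**Figure D2:**
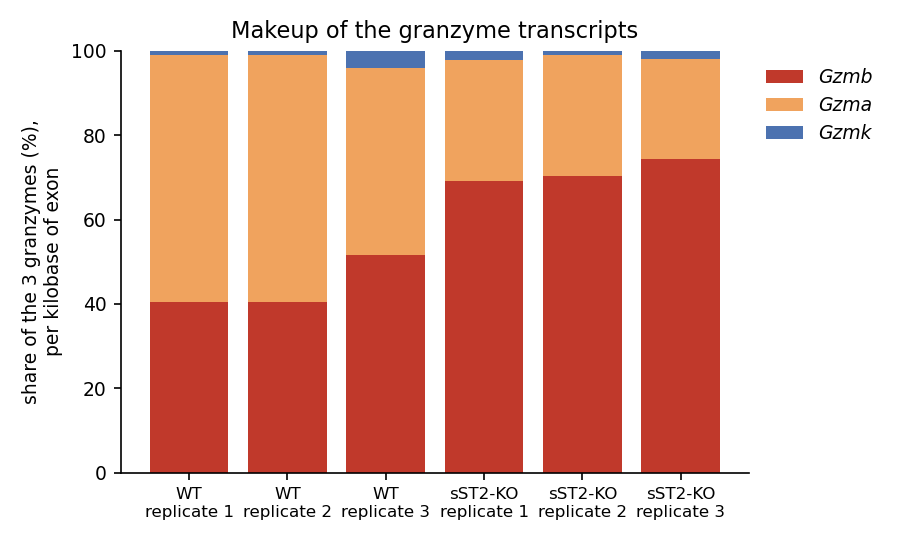
Share of Gzmb, Gzma and Gzmk in their summed level per kilobase of exon (percent) in each of the 6 libraries. Gzmb takes 40.5% to 51.6% in the WT libraries and 69.2% to 74.3% in the sST2-KO libraries. All annotated exons are counted, and with canonical transcript lengths the shares of Gzmb would be lower.

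Perforin, encoded by Prf1 (chr10:61133546-61140461, plus strand), forms the pore through which granzymes reach the target. It measured 5.60, 6.50 and 4.07 CPM in WT and 35.3, 83.9 and 31.6 CPM in sST2-KO. The second sST2-KO library stood well above the other two of its group, and all 3 were above WT. The means were 5.39 ± 1.23 and 50.3 ± 29.2 CPM (SD, n = 3 each), a log2 fold change of 3.21 (SE 0.43), or 9.25-fold, and the log2 fold change was 2.61 without that library.

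Nkg7 (chr7:43086497-43087678, plus strand) encodes a granule membrane protein needed for efficient granule release. It measured 7.37, 8.48 and 4.56 CPM in WT and 44.7, 61.0 and 54.0 CPM in sST2-KO. The sST2-KO libraries were close to each other, and the groups did not overlap. The means were 6.80 ± 2.02 and 53.2 ± 8.15 CPM (SD, n = 3 each), a log2 fold change of 2.96 (SE 0.27), or 7.77-fold.

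Ifng (chr10:118276951-118281797, plus strand) encodes interferon gamma, which activates macrophages and raises antigen presentation. It had 2, 8 and 1 counts in WT and 71, 242 and 424 counts in sST2-KO, or 0.187, 0.754 and 0.123 CPM against 4.95, 28.7 and 41.9 CPM. Ifng varied the most of the 10 within sST2-KO, 8.46-fold from the lowest to the highest library, and its lowest sST2-KO library was still 6.56 times its highest WT library. At 6.04 (SE 0.98), or 66.0-fold, its log2 fold change was the largest of the group and had the largest SE, and it ran from 5.46 without the third sST2-KO library to 7.20 without the second WT library. An unclassified transcript, Gm49751, shares 336 exon bases with Ifng on the same strand, so some Ifng reads may not have been assigned to it. The first sST2-KO library, lowest for Ifng, was the highest for Gzmk.

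Fas ligand, encoded by Fasl (chr1:161608258-161616075, minus strand), triggers the death receptor Fas. It measured 1.77, 1.41 and 0.986 CPM in WT and 4.04, 4.98 and 4.25 CPM in sST2-KO. The sST2-KO libraries were nearly level and lay above WT without overlap. Fasl had a log2 fold change of 1.65 (SE 0.34), or 3.13-fold.

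Among the receptors, Klrd1 (chr6:129568677-129575738, plus strand) encodes CD94, which pairs with NKG2 chains to read a nonclassical MHC molecule. It measured 3.73, 3.77 and 2.10 CPM in WT and 13.7, 16.4 and 21.3 CPM in sST2-KO, with no overlap and the third sST2-KO library highest. Klrd1 had a log2 fold change of 2.40 (SE 0.33), or 5.30-fold.

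Klrk1 (chr6:129587286-129600827, minus strand) encodes NKG2D, an activating receptor of NK cells and CD8 T cells for stress ligands. It measured 5.32, 5.00 and 4.32 CPM in WT and 18.1, 24.4 and 29.2 CPM in sST2-KO. The WT libraries were close to each other, and the groups did not overlap. The log2 fold change was 2.29 (SE 0.26), or 4.89-fold.

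Ncr1 (chr7:4340710-4348171, plus strand) encodes NKp46, an activating receptor that marks NK cells and group 1 innate lymphoid cells and that conventional T cells lack. It measured 2.89, 1.79 and 1.11 CPM in WT and 4.04, 9.49 and 3.75 CPM in sST2-KO. The second sST2-KO library was more than 2 times the others, and the lowest sST2-KO library was only 1.30 times the highest WT library. The log2 fold change was 1.55 (SE 0.51), or 2.92-fold, the smallest of the group, and 0.975 without that second library.

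Per kilobase of exon, which allows levels to be compared between genes, the order in sST2-KO was Gzmb at 307, Gzma at 118, Nkg7 at 57.9, Ifng at 19.4, Prf1 at 19.0, Klrd1 at 12.8, Gzmk at 6.46, Ncr1 at 3.69, Klrk1 at 3.33 and Fasl at 2.27 CPM per kilobase. Neighbors in this order were apart in all libraries between Gzmb and Gzma, between Gzma and Nkg7, between Nkg7 and Ifng and between Klrd1 and Gzmk, and overlapped elsewhere. In WT the order began with Gzma at 13.2, Gzmb at 10.4 and Nkg7 at 7.40 CPM per kilobase, each overlapping the next. Nkg7 was apart from Klrd1, the next at 2.40, and the remaining neighbors overlapped down to Ifng at 0.274. The overlap of Gzma with Gzmb in WT rests on 1545 exon bases for Gzma, whose canonical transcript has 890. Gzma kept its place in both groups with that shorter length. Klrk1 has many exons outside its main transcript, and with the length of the canonical transcript it moved from the eighth to the sixth place in WT and from the ninth to the eighth in sST2-KO.

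To see whether the genes differed in step with lymphocyte markers, each was divided by the summed CPM of 10 T cell genes (the Cd3 chains, Cd247, Cd2, Cd5, Lck, Cd4, Cd8a and Cd8b1) of the same library. That sum was 19.7, 22.1 and 23.7 CPM in WT and 164, 161 and 200 CPM in sST2-KO. On the log2 scale, the ratio of Gzmb was higher by 1.87 in sST2-KO, without overlap between the groups. The ratio of Fasl differed by -1.30 and that of Klrk1 by -0.73, both lower in every sST2-KO library.

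The other ratios to the T cell sum overlapped between the groups. The difference was 0.0 for Nkg7, 0.10 for Prf1, 0.20 for Gzma, 0.97 for Gzmk, 3.13 for Ifng, -0.56 for Klrd1 and -1.45 for Ncr1, and 0.77 for the sum of the 10 genes. Nkg7, Prf1 and Gzma thus had about the same mean ratio to T cell markers in both groups, whereas Gzmb did not. Against Cd8a alone, the ratio of Gzmb differed by 1.02, that of Nkg7 by -0.85, that of Prf1 by -0.76 and that of Gzma by -0.66. All of these overlapped between the groups. The mean ratio of Gzmb was thus higher against the T cell sum and against Cd8a, but without overlap only against the T cell sum. The like ratios of Nkg7, Prf1 and Gzma depended on the marker used.

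Relative to Ptprc, the pan-leukocyte gene CD45, the ratios of Gzmb and Ifng were higher without overlap, by 2.32 and 3.57 on the log2 scale, and that of Fasl was lower, by -0.86. Relative to Ncr1, the NK marker of the group, Gzmb was higher by 3.33, Gzma by 1.65, Prf1 by 1.55, Nkg7 by 1.46 and Ifng by 4.58, each without overlap. Fasl, Klrd1, Klrk1 and Gzmk overlapped in their ratio to Ncr1. Ratios of low genes such as Ifng in WT rest on 1 to 8 counts.

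**Figure D3:**
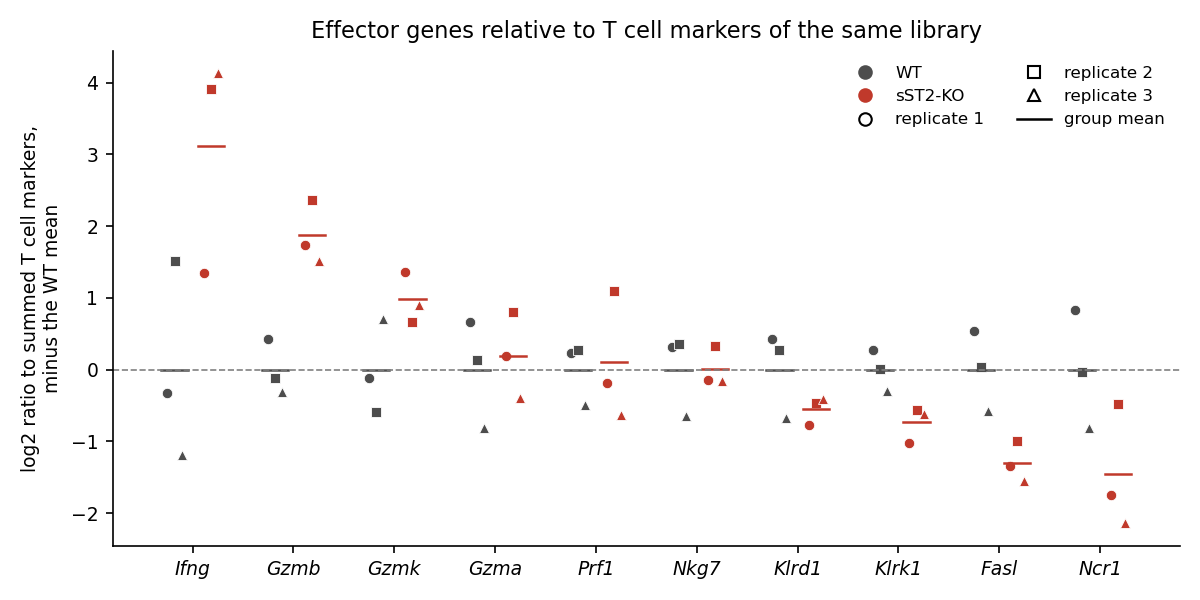
Log2 ratio of each effector gene to the summed CPM of 10 T cell genes in the same library, minus the WT mean, for 3 WT (grey) and 3 sST2-KO (red) libraries with group means as lines. Gzmb is above WT in all 3 sST2-KO libraries, by 1.87 in the mean, while Fasl and Klrk1 are below WT in all 3 and the other 7 genes overlap.

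Genes that work with the effector genes were taken as 10 lists of 141 genes, of which 133 were listed and 116 tested. Of these, 71 were called higher (61.2% against 9.04% of all genes) and 0 lower (7.1% of all genes). At an unadjusted p under 0.05, 88 were higher and 0 lower by edgeR, and DESeq2 called 76 higher and 0 lower. Their median log2 fold change was 1.71. The lists were chosen with earlier results of these libraries known, and the counts describe them only.

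The T cell genes had the highest median of the 10 lists. Of the 10 tested, 9 were called higher, with a median of 3.07, led by Cd8a, the CD8 coreceptor chain, at 3.77 (SE 0.37, adjusted p = 0.009, edgeR) and Cd3g, a chain of the T cell receptor complex, at 3.62 (SE 0.37, adjusted p = 0.009, edgeR). Cd8a measured 1.21, 2.26 and 3.21 CPM in WT and 31.5, 24.6 and 34.6 CPM in sST2-KO, far apart. Cd4, the helper T cell coreceptor and named after its values were seen, had a log2 fold change of 1.23 and was not called (adjusted p = 0.0758, edgeR). The difference between Cd8a and Cd4 was not tested.

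Of 22 tested NK receptor and adapter genes, 20 were called higher, with a median of 2.22. The largest were Klrb1a at 3.40 (SE 0.77, adjusted p = 0.0258, edgeR) on 0 to 3 counts in the WT libraries, and Klrc1, the NKG2A partner of CD94, at 3.12 (SE 0.35, adjusted p = 0.00928, edgeR). Klrc1 measured 1.12, 1.23 and 1.97 CPM in WT and 9.90, 12.1 and 15.5 CPM in sST2-KO. Genes of the Klra, Klrb1 and Klrc families are close copies of one another, and their reads could be split between them. In the third sST2-KO library, the adapter genes Fcer1g and Tyrobp measured 348 and 157 CPM, where the whole list summed to 657 CPM.

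Of the 7 other granzymes, only Gzmc and Gzmm had enough counts to be tested. Gzmc had 2, 3 and 1 counts in WT and 29, 50 and 17 in sST2-KO and was called higher, with a log2 fold change of 3.89 (SE 0.71, adjusted p = 0.0164, edgeR). Gzmm had a log2 fold change of 1.29 and was not called. Gzmd, named after its values were seen, had 0 counts in all 3 WT libraries and 19, 10 and 4 in sST2-KO. Gzmc and Gzmd lie with other near copies in the chromosome 14 cluster that also holds Gzmb, so the assignment of reads within it is uncertain.

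Of 11 genes of granule assembly, release and inhibition, 8 were called higher, with a median of 1.95. Cst7, an inhibitor of the cathepsins that activate granzymes, had a log2 fold change of 2.76 (SE 0.50, adjusted p = 0.0162, edgeR), and Stx11, a syntaxin of granule fusion, 2.64 (SE 0.35, adjusted p = 0.0122, edgeR). Lamp1 and Stxbp2, which are used in most cells, had values of -0.02 and -0.37 and were not called (named after their values were seen).

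Of 12 tested cytokine and receptor genes that activate killer cells, 10 were called higher, with a median of 2.34. The largest were Il2ra, the high-affinity interleukin 2 receptor chain, at 2.71 (SE 0.63, adjusted p = 0.0277, edgeR) and Il18, at 2.57 (SE 0.68, adjusted p = 0.0387, edgeR). Of 9 tested transcription factors, 6 were called higher, with a median of 1.41, led by Stat4, which carries the interleukin 12 signal, at 2.71 (SE 0.36, adjusted p = 0.0122, edgeR) and Eomes at 2.45 (SE 0.45, adjusted p = 0.0167, edgeR). Of 11 trafficking genes, 6 were called higher, with a median of 1.55. They were led by the chemokine genes Ccl4 at 5.12 (SE 0.78, adjusted p = 0.0136, edgeR) and Ccl5 at 3.03 (SE 0.43, adjusted p = 0.0133, edgeR). Il18 measured 4.01, 2.73 and 1.97 CPM in WT and 6.55, 9.49 and 36.2 CPM in sST2-KO. Ccl4 measured 2.80, 3.49 and 0.74 CPM in WT and 34.7, 49.2 and 168 CPM in sST2-KO. Both were far higher in the third sST2-KO library than in the others of that group.

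The lists of interferon gamma genes and of death receptor and apoptosis genes had lower medians. Of 24 genes of the interferon gamma receptor, its signaling and its targets, 7 were called higher, with a median log2 fold change of 0.827. The largest were Nos2, which makes nitric oxide in macrophages, at 3.70 (SE 0.62, adjusted p = 0.015, edgeR) and the chemokine gene Cxcl10 at 2.75 (SE 0.38, adjusted p = 0.0126, edgeR).

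The order of the sST2-KO libraries also differed between Ifng and Cxcl10. Cxcl10 measured 221, 160 and 108 CPM in the sST2-KO libraries, highest where Ifng was lowest. In WT, Cxcl10 measured 32.3, 25.6 and 14.5 CPM. Nos2 measured 41.1, 48.3 and 186 CPM in the sST2-KO libraries, in the same order as Ifng. Cxcl10 and Nos2 thus did not share an order, and they are only 2 of the 24 genes of the list.

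Of 14 genes of death receptors and apoptosis, 4 were called higher, with a median of 0.719. Tnf had the largest value at 2.45 (SE 0.37, adjusted p = 0.0136, edgeR), followed by Bid, the granzyme B substrate, at 1.66 (SE 0.40, adjusted p = 0.0288, edgeR). Fas, the receptor of Fas ligand, measured 34.6 to 51.8 CPM in WT and 42.1 to 90.1 CPM in sST2-KO and was not called. Of the ligands of NKG2D and CD94, only H2-T23 was tested, with a log2 fold change of 0.486 that was not called, and H60c had 0 counts in all 6 libraries.

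**Figure D4:**
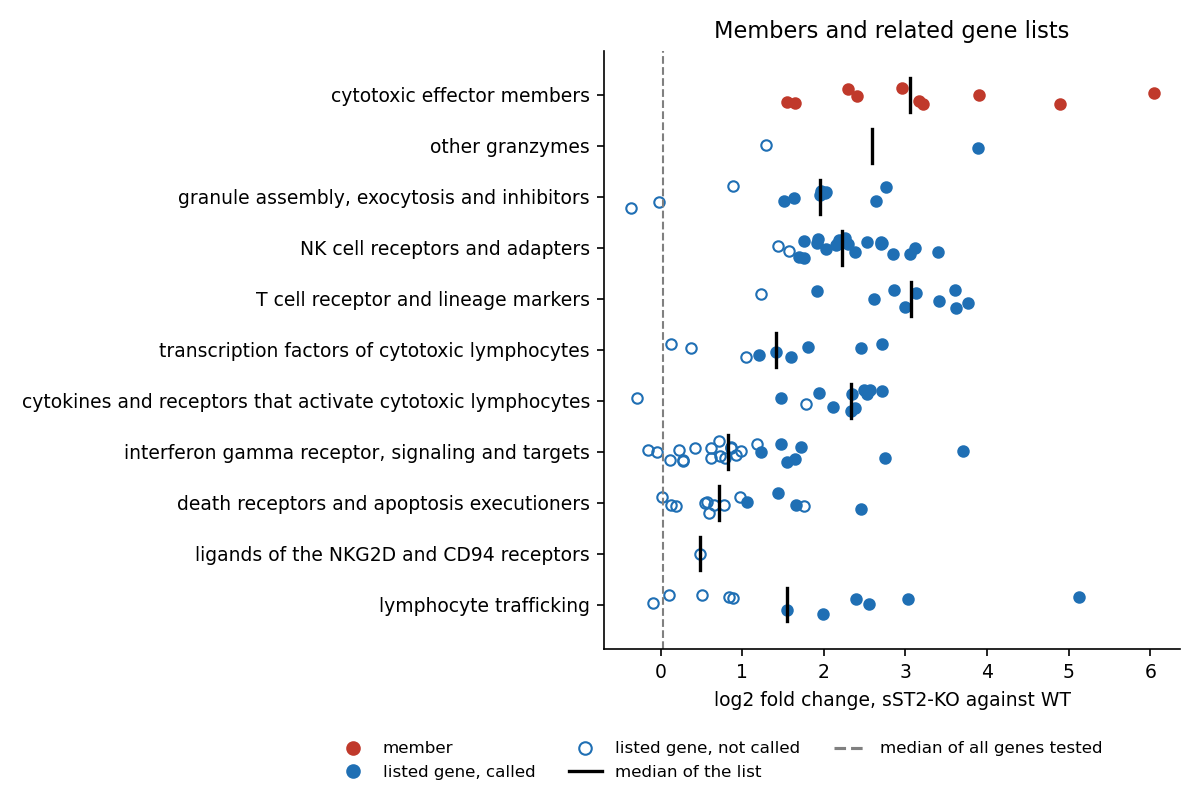
Log2 fold change (sST2-KO against WT) of the 10 effector genes (red) and of the tested genes of 10 related lists (blue, filled where called), with list medians as black lines and the median of all genes tested as a dashed line at 0.0336. The T cell list has a median of 3.07, near the 3.06 of the effector genes, and the interferon gamma and death receptor lists lie lower, at 0.827 and 0.719.

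Markers of other cells also differed between the groups. The Ptprc level was 40.1, 30.8 and 24.3 CPM in WT and 125, 174 and 283 CPM in sST2-KO. Macrophage markers summed to 545 to 732 CPM in WT and to 949, 1090 and 4740 CPM in sST2-KO, with 1 of 6 called higher by edgeR, 3 at an unadjusted p under 0.05 and 3 called by DESeq2. Neutrophil markers summed to 30.6 to 132 CPM in WT and to 143 to 687 CPM in sST2-KO, with 2 of 6 called higher by edgeR, 6 at an unadjusted p under 0.05 and 5 called by DESeq2.

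Mast cell markers summed to 4.05 to 5.88 CPM in WT and to 5.10 to 98.6 CPM in sST2-KO, with 0 of 4 tested called by edgeR, 3 of them at an unadjusted p under 0.05 and 4 called by DESeq2. B cell markers stayed at 0.933 to 2.96 CPM in WT and 2.73 to 5.78 CPM in sST2-KO, with 0 of 2 tested called, and plasmacytoid dendritic cell markers at 0.247 to 1.98 CPM and 0.475 to 2.30 CPM, with 0 of 1 tested called. For both lists, 0 genes reached an unadjusted p under 0.05 by edgeR or were called by DESeq2. Markers of type 2 innate lymphoid cells summed to 27.1 to 113 CPM and 78.3 to 420 CPM, mostly from Rora and Arg1, which other cells also express, and 1 of 3 tested was called by edgeR and 0 by DESeq2. Their defining cytokine Il13 had 0 counts in WT and at most 2 in sST2-KO.

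Of the regulatory T cell markers, 2 of 4 were called higher, and their sum was 16.3 to 24.8 CPM in WT and 53.9 to 63.8 CPM in sST2-KO. Foxp3, their defining factor, had a log2 fold change of -0.43 and was not called, and Ctla4, which activated T cells also express, had 5.35 (SE 0.71, adjusted p = 0.0122, edgeR). Of the 8 skeletal muscle markers, 0 were called by edgeR, 6 had an unadjusted p under 0.05, 2 were called by DESeq2, and all 8 were higher in every sST2-KO library than in any WT library. The part of these cells and of muscle tissue in the levels of the effector genes was not tested. The third sST2-KO library had the highest sums of macrophage, mast cell, neutrophil and muscle markers and of the T cell and NK cell lists. Among the effector genes it was highest only for Ifng, Klrd1 and Klrk1. The second sST2-KO library was highest for Gzma, Gzmb, Prf1, Nkg7, Fasl and Ncr1.

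**Figure D5:**
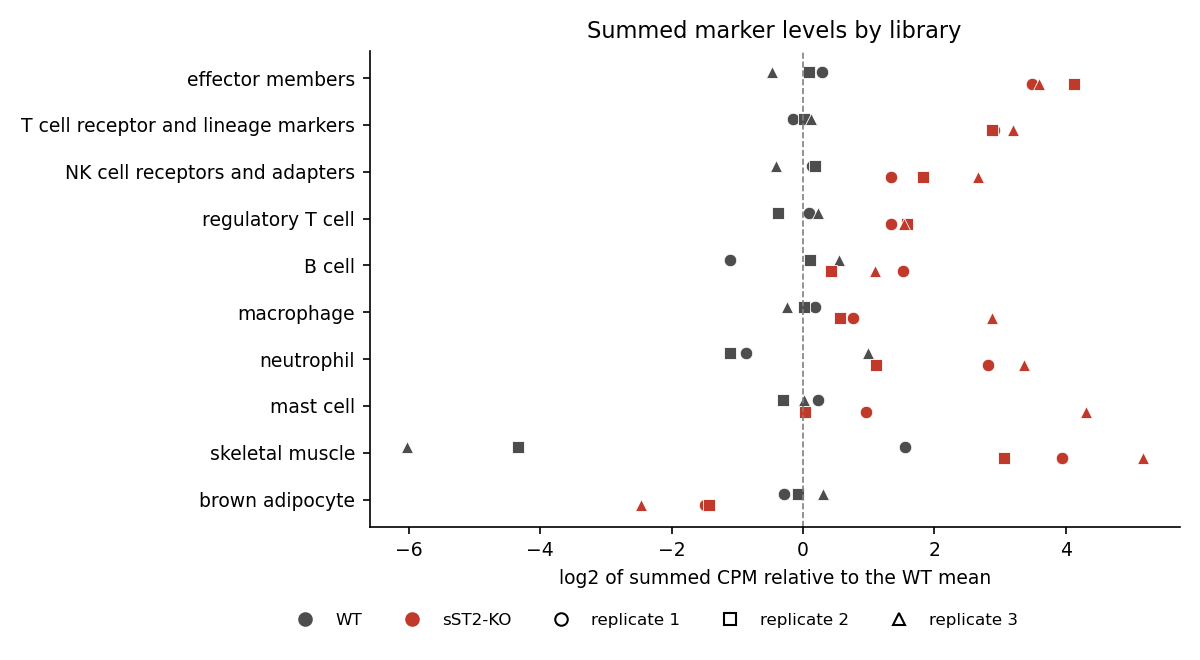
Summed CPM of the effector genes and of 9 marker lists in each library, as log2 relative to the WT mean, for 3 WT (grey) and 3 sST2-KO (red) libraries. The effector genes and T cell markers are close together within sST2-KO. Macrophage, mast cell and NK cell sums are highest in the third sST2-KO library, at 4740, 98.6 and 657 CPM.

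The genes nearest in pattern to the effector genes were found from log2 CPM centered over the 6 libraries, by the root mean square difference to the mean profile of the 10 genes. The nearest were Lck, the kinase of the T cell receptor, at 0.16, LOC108167725 at 0.18, Ier3 at 0.22, Zap70, another kinase of that receptor, at 0.23, Cyfip2 at 0.24, Gimap7 at 0.26, Selp at 0.28 and Tmem163 at 0.28. Of the 10 effector genes, Nkg7 was the closest to their mean at 0.13 and Ifng the farthest at 1.40. With 6 libraries in 2 groups, this likeness mostly repeats the difference between the groups.

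Nkg7 was nearest to Lck at 0.13, Zap70 at 0.17 and Cyfip2, LOC108167725 and Ier3 at 0.22. Lck measured 5.32, 5.18 and 3.45 CPM in WT and 35.3, 39.0 and 38.0 CPM in sST2-KO, with the third WT library lowest as for Nkg7. Gzmb had fewer near neighbors: Icos, a costimulatory receptor of activated T cells, at 0.30, Themis, a T cell signaling gene, at 0.51, Chil3 at 0.60, I830127L07Rik at 0.68 and Fgf23 at 0.70. Icos measured 0.653, 0.565 and 0.370 CPM in WT and 12.4, 16.1 and 16.7 CPM in sST2-KO, and Gzmb differed from the other 9 effector genes by 0.87 or more.

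The p values set the difference between the groups against the spread between the 3 mice of each group, estimated with information shared across genes. With 3 samples a group, an exact two-sided permutation test of 3 against 3 cannot give a p below 0.1. Without the third WT library, 4 of the 10 effector genes and 8 of the related genes were called higher, in place of 9 and 71. Over all genes, 58 were called in either direction in that fit, in place of 2348.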

How the data were processed

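Counts per gene symbol in 3 WT and 3 sST2-KO BAT libraries were analyzed as the authors deposited them, without normalization. The authors selected poly-A RNA, aligned the reads to mm39 with HISAT2 (FastQC 0.12.1 and HISAT2 2.2.1 in the submitters' processing notes) and counted them with htseq-count, whose version, annotation and strand setting are not given in the sources used here. Libraries were assigned by the sample labels.

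The members and lists were chosen with earlier results of these data known. In R 4.3.3, edgeR 4.0.16 was used with filterByExpr, TMM scaling and the quasi-likelihood test. No covariate entered, and p values were adjusted by Benjamini-Hochberg over 14542 genes. Calls needed more than 2-fold and an adjusted p under 0.05. The SE is the log2 fold change over the square root of F. The steps were tested on simulated data. Exon lengths are unions of GENCODE exons in GRCm39. Likeness used log2 CPM with a prior count of 2.

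The text names the 10 members, the 2 largest called rises and the largest called fall of each related list, the 8 genes nearest to the members' mean profile and the 5 nearest to Gzmb and to Nkg7. Marker genes and others were chosen after their values were seen. No library was a copy of another, as chi-square values within groups ran from 36.6 to 104 for each degree of freedom. In 27 rows the symbol had turned into a date, and these rows stayed in the tests unnamed. Also run were other filters, total counts, RLE factors, DESeq2 1.42.0, robust estimation, no fold minimum, a replicate block and each library left out. Plots used Python 3.11.15 and matplotlib 3.10.9. The result of 1 gene is not reported here.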

Additional observations from a re-analysis of the deposited data

How the results depend on the processing

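The counts of called genes depended on single libraries, and the directions of the 10 effector genes did not in the 13 alternative fits, where 126 recomputed log2 fold changes ran from 0.975 to 7.20 with 0 reversed. With each library left out, the effector genes called were 4 (without WT replicate 3) to 9, the related genes 8 (WT replicate 3) to 68, the interferon gamma genes 0 (WT replicate 3) to 8, and all genes called 58 (WT replicate 3) to 2323, against 9, 71, 7 and 2348. Without WT replicate 2, 33 related and 2 interferon gamma genes and 871 genes in all were called, and without sST2-KO replicate 3 1324 genes in all. Without WT replicate 3, 3797 genes, 9 effector genes and 9 interferon gamma genes had an unadjusted p under 0.05 by edgeR. Requiring at least 10 counts in every library gave 47 related genes called, and scaling by total counts gave 11 interferon gamma genes and moved the median of all genes to 0.293. The log2 fold change of Ifng moved to 7.20 without WT replicate 2 and 5.46 without sST2-KO replicate 3, that of Ncr1 to 0.975 without sST2-KO replicate 2, that of Gzmk to 4.37 without WT replicate 3 and that of Prf1 to 2.61 without sST2-KO replicate 2. The cause of these shifts was not tested.

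When the replicate number entered as a block, 0 genes were called in any of these counts, with 2 residual degrees of freedom and a lowest adjusted p of 0.0644, while 4623 genes, 10 effector genes, 87 related genes and 13 interferon gamma genes had an unadjusted p under 0.05. The labels name no pairing of the mice by number. Same-numbered libraries correlated at -0.12, 0.28 and -0.38 in their deviations from the group means over 5000 genes. These values alone cannot settle whether the numbers pair the mice. WT counts of 1 to 8 for Ifng and Gzmk limit the precision of their fold changes.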
